A study of Mus musculus with 48 samples.

Results

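Resting airspace macrophages of mice lacking Siglec-F (KO) were compared with those of wild-type (WT) mice, using 6 naive mice of the 24 in the series. Membership followed the sample labels alone: 3 KO naive and 3 WT naive male mice, whose macrophages were collected by bronchoalveolar lavage, which rinses cells out of the air spaces of the lung. The labels call both groups naive and day 0 and list saline as their treatment, without saying whether saline was instilled. The remaining 18 mice, 9 KO and 9 WT, had received bleomycin at 2.5 units/kg into the trachea 7, 14 or 21 days earlier, with 3 mice per genotype and day. The knockout allele, the strain, the age of the mice and any sorting of the lavage cells are unstated in the sources used. Naive libraries held 39052898 to 41220913 counts in KO mice and 27075102 to 47457085 counts in WT mice. Each library is a separate mouse. The p-values measure the spread between mice of the same group, estimated over all 8 groups, bleomycin mice included.

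Siglec-F, the product of Siglecf, is a sialic acid-binding receptor of the CD33-related Siglec family, found on mouse alveolar macrophages and eosinophils. It carries inhibitory tyrosine motifs in its cytoplasmic tail, and such motifs recruit the phosphatases SHP-1 (Ptpn6) and SHP-2 (Ptpn11). Alveolar macrophages are self-renewing resident cells that clear surfactant and inhaled particles and depend on GM-CSF and the nuclear receptor PPARG.

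Levels are given in CPM, counts divided by the scaled library total. Siglecf (ENSMUSG00000039013.16, mm10 chromosome 7, 43351341 to 43359531) stood at 0.276, 0.169 and 0.577 CPM in the KO mice, from 12, 7 and 25 counts, against 481, 419 and 403 CPM in the WT mice. The targeted gene therefore went with the genotype label in all 6 libraries. Its log2 fold change was -10.29 (SE 0.41, edgeR adjusted p = 8.73e-13), and -10.90 without KO mouse 3.

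The other listed genes of resident alveolar macrophages were detected in both genotypes, and none of them was called. Ear10, Cxcl2, Ear6 and Kcnip4 were low in both, at 0.521, 1.42, 3.61 and 6.23 CPM on average in KO mice and 0.545, 1.68, 3.64 and 5.51 CPM in WT mice. Of 37 identity genes tested, 1, Siglecf itself, was called, and the median log2 fold change of the list was -0.06 against -0.001 over all 12634 genes tested. The list leaned downward, with 27 of the 37 negative and 10 positive, where 47.9% of all genes tested were positive. The integrin gene Itgax had 1459, 1693 and 1645 CPM in KO mice and 1769, 1774 and 1528 CPM in WT mice. Pparg had 166, 172 and 176 CPM in KO mice and 184, 179 and 173 CPM in WT mice. The chitinase-like secreted protein gene Chil3 averaged 18417 ± 545 CPM in KO mice and 17068 ± 2826 CPM in WT mice (SD, n = 3 each). The KO and WT ranges overlapped for these 3 genes.

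For some macrophage genes the fitted interval was narrow around no change. The GM-CSF receptor subunit gene Csf2ra had a log2 fold change of -0.07 with a 95% interval of -0.30 to 0.17, and Atp6v0d2, a proton pump subunit gene, one of -0.00 with an interval of -0.18 to 0.18. The carbonic anhydrase gene Car4 (-0.32, SE 0.30) and the scavenger receptor gene Marco (0.47, SE 0.36) varied between mice of 1 genotype: Marco had 1046, 504 and 728 CPM in KO mice against 472, 460 and 715 CPM in WT mice. Bhlhe41, a transcription factor gene of resident macrophages, had 307, 283 and 233 CPM in KO mice against 106, 177 and 146 CPM in WT mice. Its groups did not overlap, but the gene missed the threshold in edgeR (log2 fold change 0.94, SE 0.23, adjusted p = 0.0704); DESeq2, limma-voom and a model with the share of Rn45s, the ribosomal RNA precursor, did call it.

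Several defining genes of other cell types were at or near 0. The T cell gene Cd3e, the B cell gene Cd79a, the eosinophil gene Epx and the fibroblast gene Col1a1 stood at 0 CPM in all WT mice, and only Cd3e reached any level in a KO mouse, at 0.0462 CPM. The monocyte gene Ly6c2 peaked at 0.0692 CPM and the epithelial gene Sftpc at 0.161 CPM in KO mice, against 0 and 0.505 CPM in WT mice. Other members of these lists were not low. Cd2, listed for T and NK cells, averaged 365 CPM in KO mice and 420 CPM in WT mice. Cd22, listed for B cells, averaged 204 and 208 CPM, and Vwf, listed for stromal cells, 114 and 105 CPM in KO and WT mice. Among listed monocyte genes, Ace averaged 61.3 and 59.3 CPM and Treml4 55.2 and 56.0 CPM in KO and WT mice. Among listed epithelial genes, Epcam averaged 104 and 127 CPM and Abca3 115 and 113 CPM in KO and WT mice. The summed T and NK cell list stood at 303 to 401 CPM in KO mice and 401 to 448 CPM in WT mice, and the B cell list at 197 to 210 CPM in KO mice and 186 to 229 CPM in WT mice. Summed over 14 monocyte markers, the level was 151 to 159 CPM in KO mice and 137 to 160 CPM in WT mice. Ace and Treml4 made up most of that sum. Of the 14 monocyte genes, several of them at or near 0 CPM, 10 were positive and 3 negative. Their median log2 fold change was 0.25. No member of the monocyte, interstitial macrophage, T and NK cell, B cell, neutrophil, eosinophil, dendritic, stromal or erythroid lists was called, and 1 of the 21 epithelial genes was, Napsa. Red cell RNA differed in 1 mouse: the hemoglobin gene Hba-a1 had 0, 0 and 0.0231 CPM in KO mice and 0.311, 0.0294 and 15.4 CPM in WT mice, so WT mouse 3 held nearly all of it. Whether it bears on other genes was not tested. In bulk samples, fewer cells of a type and less RNA per cell cannot be told apart.

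Across all expressed genes the resting difference was small in number. The edgeR model called 69 of 12634 genes, or 0.546%, at a Benjamini-Hochberg adjusted p under 0.05, with 23 higher in KO mice (0.182%) and 46 lower (0.364%). Without adjustment, 1053 genes had p under 0.05. Of all genes tested, 47.9% had a log2 fold change above 0. That share and the shares called are the background for the list counts below. The median size among called genes was 1.78-fold; 15 genes were more than 2-fold lower, 4 more than 2-fold higher, and 14 differed by less than 1.5-fold. In all 69 the KO and WT mice did not overlap, as they did not in 16.8% of all genes tested.

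**Figure D1:**
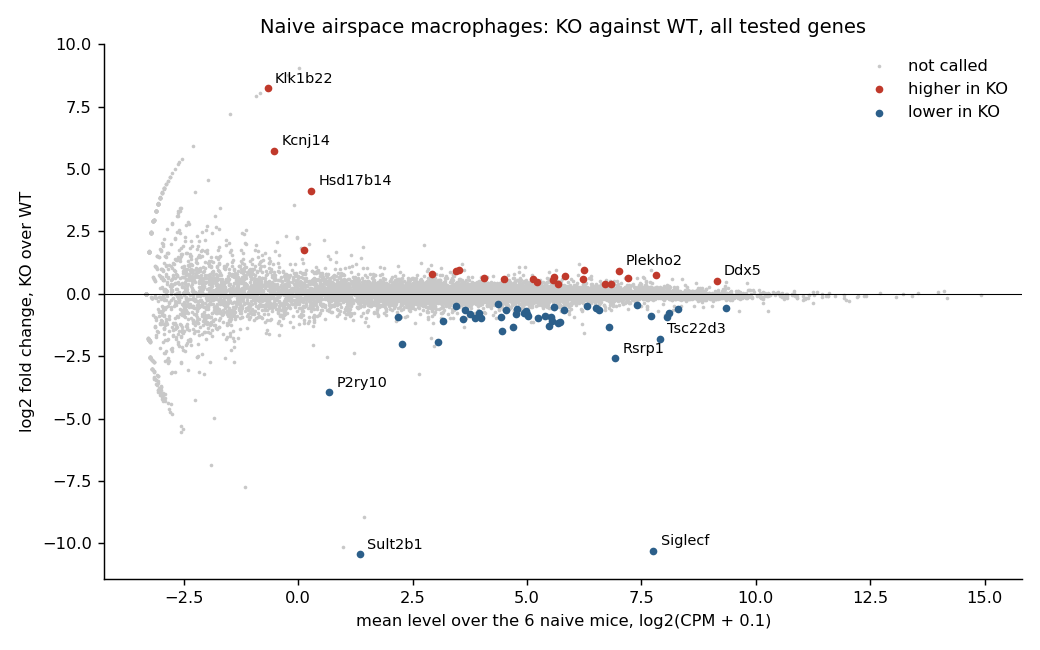
Log2 fold change of KO over WT against mean level in log2(CPM + 0.1) for all 12634 tested genes of naive mice; red points were called higher in KO (23), blue points lower (46), grey points not called. Siglecf and Sult2b1 lie at the bottom near -10, Klk1b22 at the top near 8, and apart from Kcnj14, Hsd17b14 and P2ry10 the other called genes lie within 3 log2 units of 0.

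The number of calls rested on most of the mice. The estimate of the spread drew on the bleomycin groups too. A fit of the naive mice alone called 31 genes, 21 of them among the 69. Leaving out KO mouse 1, 2 or 3 left 11, 15 and 20 calls, leaving out WT mouse 1 or 3 left 18 and 20, and leaving out WT mouse 2 gave 73, of which 53 were among the 69. The WT mice were the less alike: the median SD of log2 levels over genes was 0.11 in KO mice and 0.20 in WT mice. WT mouse 1 stood apart, with Spearman correlations of 0.982 to 0.986 with the 3 KO mice and of 0.983 and 0.985 with the other WT mice, where the other pairs of naive mice had 0.992 to 0.996. Rn45s took 3.44, 2.87 and 3.33% of counts in KO mice and 6.00, 0.743 and 2.59% in WT mice. A fit with that share as a covariate called 133 genes, 67 higher and 66 lower, including all 69; its part in the differences was otherwise not tested.

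Siglecf, Sult2b1, Klk1b22, Luc7l, Rbm39, Srsf11, Mxd1, Cttnbp2nl, Tmem140 and Plekho2, 10 genes in all, were called whichever of the 6 mice was left out. Of the other 59, the most frequent pattern, in 30 genes, was a call kept only without WT mouse 2, and 11 genes lost their call without any 1 of the mice. Luc7l, Rbm39 and Srsf11 belong to the splicing genes described below, and Siglecf, Sult2b1 and Klk1b22, lie close together on chromosome 7.

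Genes near Siglecf on chromosome 7 were called more often than genes elsewhere. Within 2.5 Mb of the start of Siglecf, a window chosen after the values were seen, 8 of the other 86 tested genes were called (9.30%), against 57 of 12037 tested genes elsewhere (0.474%). All 8 lie on the higher-coordinate side, between 0.761 and 2.47 Mb away. Nearly all tested genes of the window lie on that side too. Only AI987944, AW146154, Zfp788, Zfp141 and Zfp715 were tested on the other, so the side of the calls says little. A window of 10 Mb either side held 136 other tested genes and the same 8 calls. The genes of this stretch with levels under 5 CPM were chosen after their values were seen.

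Sult2b1, the cholesterol sulfotransferase gene 2.38 Mb from Siglecf, held 0 counts in all KO mice and 177, 130 and 204 counts in the WT mice. That is 0 CPM against 6.88, 3.82 and 4.04 CPM, and at least 198-fold lower in KO mice, taken against 3 counts over the group (adjusted p = 0.00226). Klk1b22, a glandular kallikrein gene 0.761 Mb away whose family members are near-identical, had 1.54, 0.556 and 1.08 CPM in KO mice and 0 counts in all WT mice, at least 39.3-fold higher (adjusted p = 0.00672). The potassium channel gene Kcnj14 held 45, 47 and 59 counts in KO mice against 0, 2 and 0 in WT mice, a ratio of 65.0 with a 95% counting interval of 17.7 to 541 (adjusted p = 0.0417). These bounds and intervals cover counting error only, since the reads carry no molecular identifiers. Kcnj14 kept its call only without WT mouse 2 (adjusted p of 0.109 to 0.234 otherwise).

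Hsd17b14, a steroid dehydrogenase gene, had 2.44, 1.35 and 2.61 CPM in KO mice against 0.0777, 0.0588 and 0.198 CPM in WT mice, a log2 fold change of 4.13 (SE 0.69, adjusted p = 0.00729, 0.0598 without WT mouse 1). Without WT mouse 3 the log2 fold change was 4.91. Napsa, an aspartic protease gene known from surfactant protein processing in lung epithelium, had 90.7, 115 and 95.8 CPM in KO mice and 69.3, 42.0 and 44.2 CPM in WT mice. It was 1.94-fold higher (adjusted p = 0.0293) and kept its call only without WT mouse 1 (0.0734 to 0.19 otherwise). The surfactant protein genes Sftpc and Sftpb, which define the same epithelial cells, reached at most 0.161 and 0.0483 CPM in KO mice and 0.505 and 0.198 CPM in WT mice. Epcam and Abca3, also on the epithelial list, were not low. They averaged 104 and 115 CPM in KO mice and 127 and 113 CPM in WT mice. The summed epithelial list, Napsa included, stood at 1179 to 1363 CPM in KO mice and 1143 to 1342 CPM in WT mice. Most of that sum was Krt19, also on the macrophage identity list, at 956 CPM on average in KO mice and 961 CPM in WT mice. The calcium-activated cation channel gene Trpm4 was 1.89-fold higher, at 14.0, 13.1 and 15.1 CPM in KO mice against 8.55, 7.31 and 6.53 CPM in WT mice, and the clock output gene Dbp was 3.33-fold higher at under 2 CPM. Both lost their call without any 1 of the 6 mice (adjusted p of 0.0948 to 0.234 for Trpm4 and 0.129 to 0.198 for Dbp). Trpm4 also overlaps the pseudogene Rpl14-ps1. Sphk2, which makes the lipid mediator sphingosine 1-phosphate, was 1.63-fold higher, at 71.6, 74.4 and 64.6 CPM in KO mice against 46.1, 43.6 and 39.7 CPM in WT mice (adjusted p = 0.00786). Sphk2 was not called without KO mouse 1, KO mouse 2 or WT mouse 3 (adjusted p of 0.062 to 0.0667). Its annotated span overlaps Dbp and the abundant Rpl18 on the other strand, so with strand use not stated its value is uncertain. The same holds more strongly for Dbp, which averaged 0.987 CPM over the 6 naive mice against 56.7 CPM for Sphk2.

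The bleomycin mice, none of which entered the resting contrast, gave the same direction for all 9 of these genes, Siglecf included. Averaged over the 3 bleomycin days, edgeR called 64 genes in all (0.507%), among them Siglecf and 10 of the 86 neighbours (11.6%), against 48 of the 12037 genes elsewhere (0.399%). Klk1b22 was at 0.364 to 1.79 CPM in the 9 KO mice (median 0.855) and at 0 counts in the 9 WT mice. Sult2b1 was at 0 to 0.248 CPM in KO mice (median 0) and 0.774 to 3.61 CPM in WT mice (median 1.58), and Trpm4 at 15.0 to 32.5 CPM in KO mice (median 17.7) and 7.07 to 13.0 CPM in WT mice (median 10.0). Groups did not overlap for Sult2b1, Klk1b22, Kcnj14 and Trpm4 and did for Napsa, which was called too, at a log2 fold change of 0.77 (SE 0.11, adjusted p = 0.00147).

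Another 5 neighbours were called after bleomycin and not at rest. Emc10, a gene of the ER membrane complex, had a log2 fold change of -0.46 (SE 0.08) in bleomycin mice and -0.47 (SE 0.13, adjusted p = 0.172) in naive mice. The calcium-binding protein genes Rcn3 (1.38 in bleomycin mice and 1.11 in naive mice) and Nucb1 (-0.27 and -0.14) and the DNA polymerase subunit gene Pold1 (-0.42 and -0.48) likewise had the same sign at rest. Fcgrt, the neonatal Fc receptor gene, had 0.90 (SE 0.12) after bleomycin and 0.19 (SE 0.21) at rest, with 466, 549 and 520 CPM in KO naive mice against 565, 398 and 383 CPM in WT naive mice. The test of the difference between rest and bleomycin did not call any of these 5 (adjusted p of 0.223 or more). Of the 9 genes called at rest, Siglecf included, 6 were called after bleomycin. Hsd17b14 (log2 fold change 1.32, adjusted p = 0.0982), Dbp (0.67, adjusted p = 0.154) and Sphk2 were not. The log2 fold change of Sphk2 after bleomycin was 0.08 (SE 0.07). Sphk2 alone of the 9 was called in the test of the difference between the 2 states (0.63, adjusted p = 0.0381). For Sult2b1 and Klk1b22 that test could not decide, since whole groups held 0 counts (SE 7672 and 1153).

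**Figure D2:**
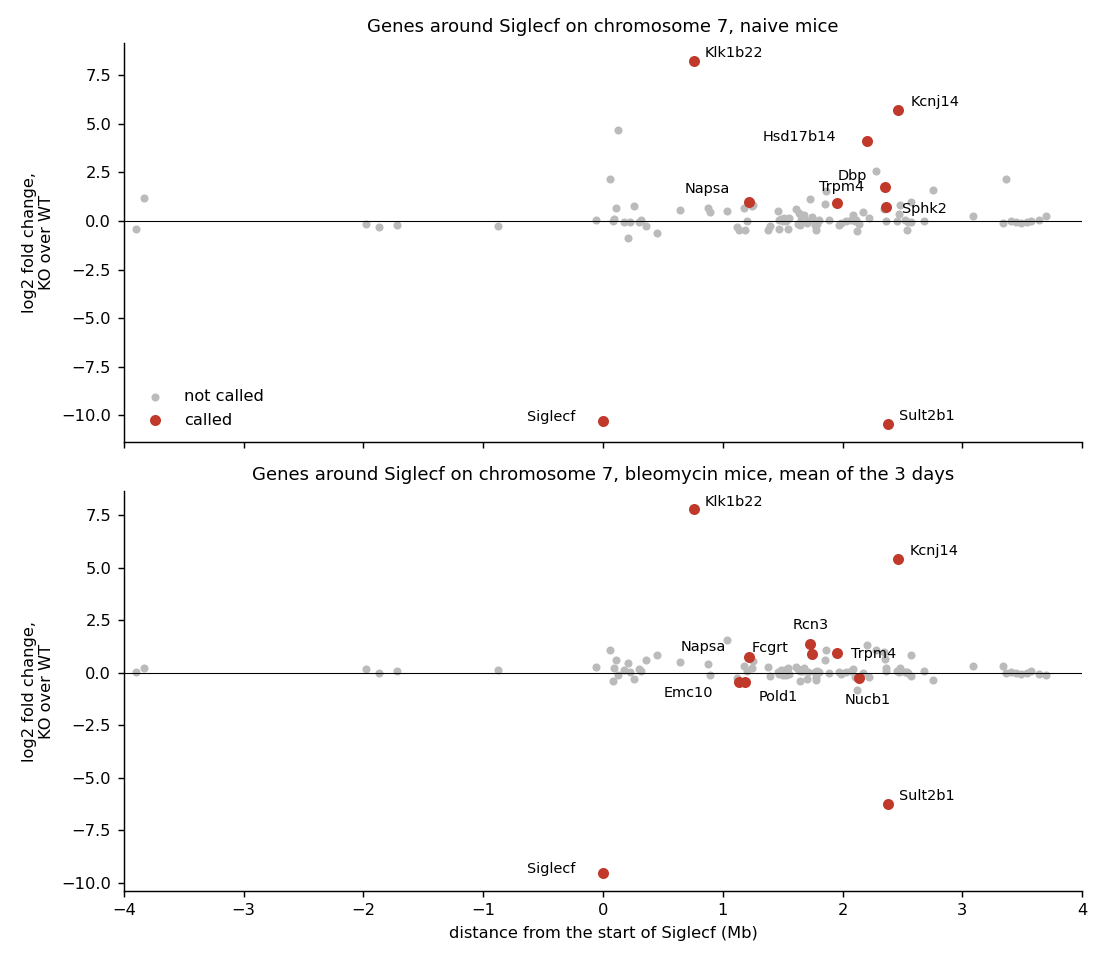
Log2 fold change of KO over WT for genes within 4 Mb of the start of Siglecf, by distance in Mb, in naive mice (upper panel) and averaged over the bleomycin days (lower panel); red points were called by edgeR. In both panels the called genes lie between Siglecf and 2.47 Mb from it on the same side. Most of the tested genes shown lie on that side.

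Of the 41 gene lists, the one with the most calls was that of pre-mRNA splicing and nuclear speckle genes. Nearly all of its called members were lower in KO macrophages. Nuclear speckles are nuclear bodies in which splicing factors are stored, and arginine- and serine-rich (SR) proteins and their partners help the spliceosome choose splice sites. Of 49 listed genes, all tested, 8 fell and 1 rose in KO mice, where 0.364% of all genes tested fell and 0.182% rose. The log2 fold change was negative in 33 and positive in 16, where 47.9% of all genes tested were positive. The list's median was -0.10, against -0.001 over all genes. The list was drawn up with earlier results of these data known and is not independent evidence of its direction. Its members called numbered 3, 3 and 5 without KO mouse 1, 2 or 3, and 6, 9 and 4 without WT mouse 1, 2 or 3.

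Luc7l and Luc7l3 encode relatives of a yeast protein of the U1 particle, which recognises the start of an intron. Luc7l (mm10 chromosome 17, 26252896 to 26285504) had 10.2, 11.0 and 12.9 CPM in KO mice against 36.8, 25.8 and 33.5 CPM in WT mice, a log2 fold change of -1.498 (SE 0.18, adjusted p = 0.00025). Luc7l3 had 18.9, 18.8 and 20.7 CPM in KO mice against 30.1, 33.8 and 39.3 CPM in WT mice and was 1.77-fold lower (adjusted p = 0.00788). Luc7l stayed called in every leave-one-out fit, and Luc7l3 lost its call without KO mouse 1, KO mouse 2 or WT mouse 3 (0.092, 0.0632 and 0.0639). Prpf39, another U1-associated gene, is not on the splicing list. It had 5.36, 5.51 and 6.14 CPM in KO mice against 13.3, 11.3 and 11.3 CPM in WT mice. That is 2.11-fold lower (adjusted p = 0.0216, kept only without WT mouse 2).

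Among the RNA-binding regulators, Rbm39, a relative of the 3' splice site factor U2AF, had 51.5, 61.1 and 74.7 CPM in KO mice against 195, 121 and 162 CPM in WT mice. It was 2.55-fold lower (log2 fold change -1.35, SE 0.20, adjusted p = 0.00226) and stayed called in every leave-one-out fit. The SR family gene Srsf11 had 25.6, 22.5 and 27.6 CPM in KO mice against 57.1, 39.4 and 52.7 CPM in WT mice, 1.97-fold lower, and was also called in each (adjusted p = 0.00277). KO and WT mice were apart in both, and WT mouse 2 was the lowest WT mouse in each.

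The remaining called splicing genes, of which Srek1 and Prpf38b are not on the splicing list, were less steady in their calls. A leave-one-out fit has fewer mice to test with, so a lost call need not mean a changed size. Over these fits the log2 fold change ran from -0.98 to -0.84 for Arglu1 and from -1.42 to -0.90 for Rbm25. Rsrp1, encoding a small arginine- and serine-rich protein, had 28.2, 22.4 and 53.8 CPM in KO mice against 169, 231 and 224 CPM in WT mice, the lowest log2 fold change outside chromosome 7 among genes of at least 5 CPM (-2.58, SE 0.45). Its adjusted p of 0.011 became 0.116 without KO mouse 1 and 0.107 without KO mouse 2. Rbm25, another U1-linked regulator, had 30.8, 32.9 and 31.9 CPM in KO mice against 42.5, 76.6 and 93.7 CPM in WT mice, and kept its call only without WT mouse 1 (0.0417 with all mice, 0.0859 to 0.243 otherwise). The splicing regulator gene Srek1 was 2.00-fold lower, at 7.68, 7.51 and 8.89 CPM in KO mice against 13.1, 14.9 and 20.0 CPM in WT mice, and lost its call without any 1 mouse (0.0518 to 0.237). Arglu1 was 1.88-fold lower, the SR-like gene Tra2b 1.59-fold lower and the spliceosome gene Prpf38b 1.86-fold lower. Arglu1 and Tra2b kept their calls only without WT mouse 2 (0.0539 to 0.182 otherwise) and Prpf38b only without WT mouse 1 (0.0523 to 0.154 otherwise).

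The RNA helicase gene Ddx5 went the other way, at 652, 726 and 631 CPM in KO mice against 363, 554 and 481 CPM in WT mice, 1.44-fold higher (adjusted p = 0.0477, kept only without WT mouse 2). The speckle RNA Malat1 had 37.2, 22.6 and 64.9 CPM in KO mice and 51.3, 21.7 and 24.0 CPM in WT mice, with overlapping groups. The kinase gene Clk1, which phosphorylates SR proteins and was named after its values were seen, had 19.4, 14.7 and 28.9 CPM in KO mice against 39.0, 32.9 and 33.3 CPM in WT mice and was not called (log2 fold change -0.74, SE 0.25, adjusted p = 0.3).

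**Figure D3:**
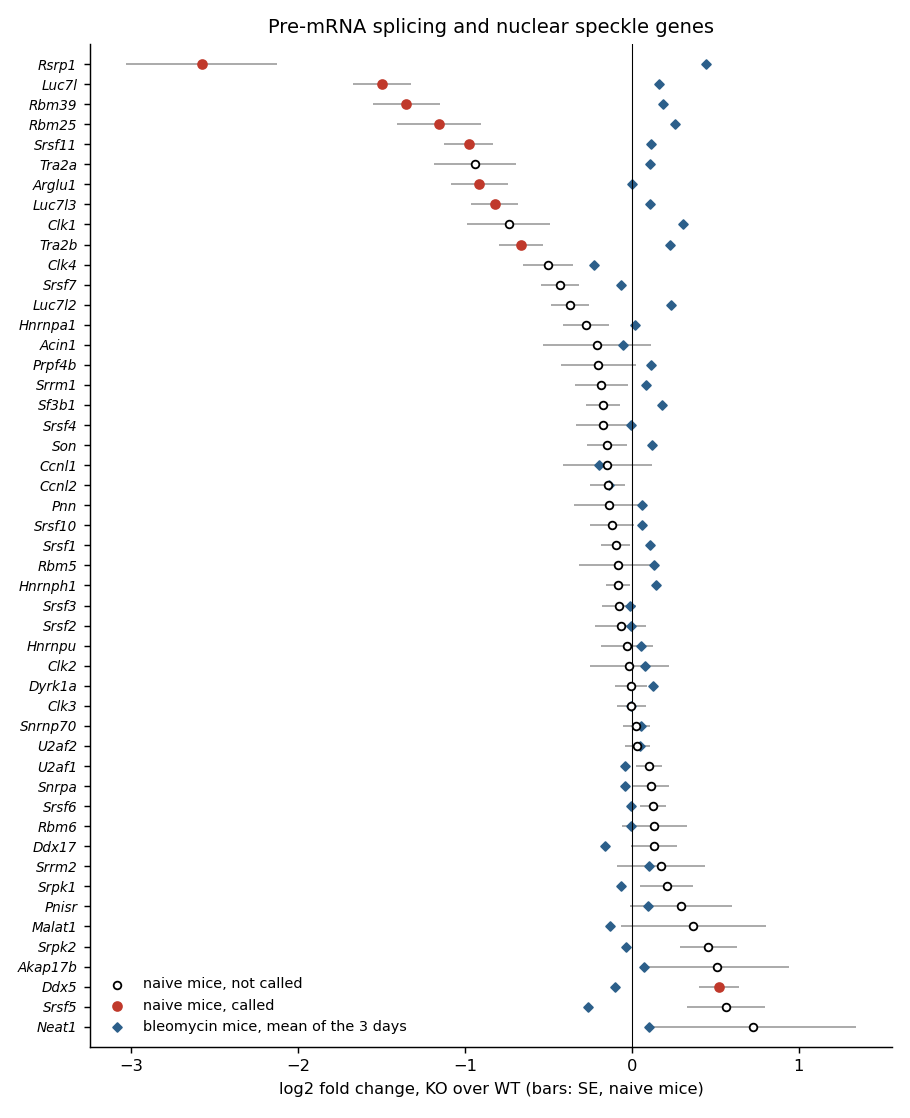
Log2 fold change of KO over WT for the 49 pre-mRNA splicing and nuclear speckle genes: circles show naive mice with their SE (red called, open not called), diamonds the average over the bleomycin days. Rsrp1 to Tra2b lie to the left in naive mice, down to -2.58, while the diamonds of the 8 genes that fell at rest all lie right of 0.

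The pair of enzymes that add and remove O-GlcNAc, a sugar placed on serines and threonines of nuclear and cytoplasmic proteins, moved in opposite directions. Ogt, which adds the sugar, had 21.6, 19.9 and 26.3 CPM in KO mice against 51.0, 40.8 and 34.8 CPM in WT mice, a log2 fold change of -0.90 (SE 0.17, adjusted p = 0.0179). Mgea5, which removes it, had 93.2, 89.5 and 89.8 CPM in KO mice against 49.99, 66.6 and 62.3 CPM in WT mice, a log2 fold change of 0.61 (SE 0.12, adjusted p = 0.0236). Neither gene's groups overlapped. Ogt was named after its values were seen; it lost its call without KO mouse 1, KO mouse 2 or WT mouse 1 (0.123, 0.119 and 0.127), and Mgea5 kept its call only without WT mouse 2 (0.0734 to 0.167 otherwise).

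Several called regulators of transcription and stress were lower in KO macrophages. Mxd1 encodes a repressor that competes with MYC for its partner MAX. It had 27.7, 30.7 and 29.8 CPM in KO mice against 60.9, 66.3 and 62.8 CPM in WT mice, the tightest of the large differences (log2 fold change -1.11, SE 0.14, adjusted p = 0.000569), and stayed called whichever mouse was left out. Tsc22d3, which encodes the glucocorticoid-induced leucine zipper protein, had 82.3, 82.6 and 156 CPM in KO mice against 396, 344 and 380 CPM in WT mice (-1.80, SE 0.35, adjusted p = 0.0217). Crem, a cyclic AMP-responsive regulator, had 3.26, 3.53 and 3.51 CPM in KO mice against 24.3, 5.99 and 9.03 CPM in WT mice, so that WT mouse 1 alone held most of it. Without that mouse the log2 fold change of Crem was -1.13 instead of -1.92 and its adjusted p was 0.144. Leaving out KO mouse 1, 2 or 3 also ended its call (0.141, 0.11 and 0.0751). Tsc22d3 lost its call without KO mouse 1 or 2 or WT mouse 1 or 3 (0.0738 to 0.158).

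The AP-1 subunit gene Jun had 27.3, 32.1 and 35.7 CPM in KO mice against 82.8, 48.4 and 50.5 CPM in WT mice. The heat shock co-chaperone gene Dnajb1 had 30.2, 33.6 and 34.5 CPM in KO mice against 100, 49.6 and 67.0 CPM in WT mice. Groups did not overlap, but WT mouse 1 was by far the highest in both, and both kept their calls only without WT mouse 2 (0.0667 to 0.308 otherwise). The other lists around them had 1 called member each or none. Of 25 glucocorticoid response genes, 1 fell and 18 were negative (median -0.17). Of 36 cyclic AMP response genes, 1 fell and 26 were negative (median -0.08). Over all genes tested, 0.364% fell and 47.9% were positive. Of 30 immediate-early genes, 1 fell with a median of 0.03, and of 21 heat shock genes, 1 fell with a median of -0.01. Each of these single calls was lost in 4 or more of the 6 leave-one-out fits.

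Other members of these lists had apart groups without passing the threshold. The clock and glucocorticoid response gene Per1 had 34.9, 32.3 and 47.8 CPM in KO mice against 86.8, 132 and 121 CPM in WT mice (log2 fold change -1.57, SE 0.48, adjusted p = 0.214). The transcription factor gene Klf9 had 7.75, 9.03 and 9.00 CPM in KO mice against 16.7, 16.6 and 16.8 CPM in WT mice (-0.96, SE 0.25, adjusted p = 0.0983). The heat shock protein gene Hspa1a, nearly identical to Hspa1b, had 53.2, 38.8 and 41.2 CPM in KO mice against 138, 62.2 and 110 CPM in WT mice (-1.22, SE 0.45, adjusted p = 0.363). Averaged over the tested genes of a list as log2(CPM + 1), the glucocorticoid list stood at 4.67 to 4.77 in KO mice against 4.95 to 5.02 in WT mice, and the cyclic AMP list at 4.14 to 4.23 in KO mice against 4.32 to 4.37 in WT mice.

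**Figure D4:**
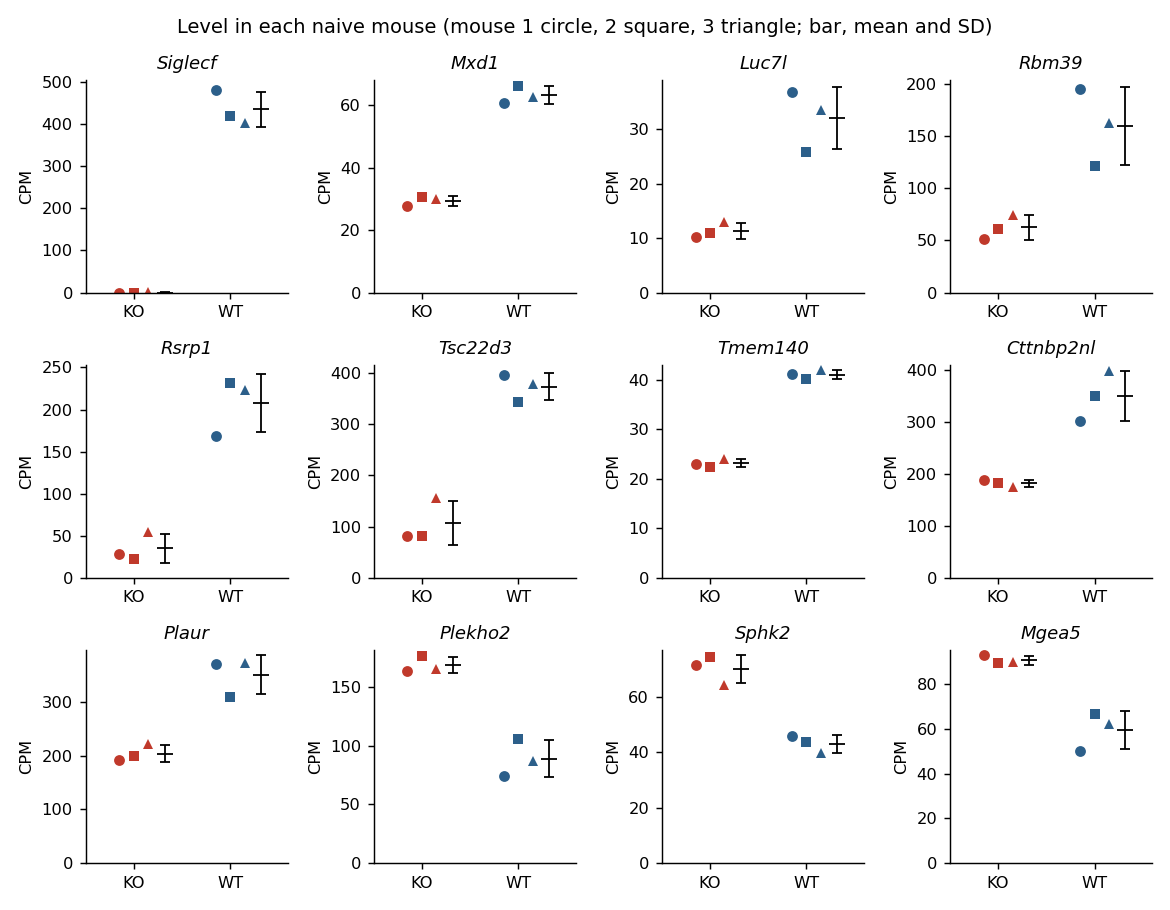
CPM of 12 called genes in each naive mouse, KO (red) left of WT (blue), with circles for mouse 1, squares for mouse 2, triangles for mouse 3 and the group mean and SD in black. In every panel the KO and WT mice are apart; Mxd1 and Tmem140 show the least spread, while Rsrp1 and Tsc22d3 have 1 higher KO mouse.

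Cell surface and matrix genes changed in both directions. Plaur, the receptor that holds urokinase at the cell surface, had 191, 199 and 221 CPM in KO mice against 370, 308 and 373 CPM in WT mice, 1.72-fold lower (adjusted p = 0.0217, kept only without WT mouse 2). Among heparan sulfate enzymes, the 3-O-sulfotransferase gene Hs3st3b1 was 4.07-fold lower, at 1.54, 2.17 and 1.85 CPM in KO mice against 9.75, 3.53 and 9.40 CPM in WT mice. The N-deacetylase and N-sulfotransferase gene Ndst1 was higher by 0.68 on the log2 scale, at 62.1, 51.5 and 65.0 CPM in KO mice against 34.8, 41.3 and 35.5 CPM in WT mice. Hs3st3b1 kept its call only without WT mouse 2 (0.109 to 0.173 otherwise), and Ndst1 lost its call without KO mouse 1 or 3 or WT mouse 1 or 3 (0.0734 to 0.11). Over the list of 33 tested genes of heparan sulfate and matrix degradation, 2 fell and 1 rose, with a median log2 fold change of 0.02. Ndst1 overlaps the abundant Rps14 on the other strand, so its value is uncertain.

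Among called genes of cell survival and death, Mcl1, Trp53inp1 and Dedd2 were lower and Fadd was higher in KO mice. Mcl1, which holds back mitochondrial apoptosis, had 482.3, 521 and 571 CPM in KO mice against 760, 813 and 785 CPM in WT mice, a log2 fold change of -0.58 (SE 0.13, adjusted p = 0.0425). The p53-induced gene Trp53inp1 was 1.52-fold lower, and the death effector domain gene Dedd2 1.71-fold lower. Fadd, the adaptor that links death receptors to caspase-8, was 1.51-fold higher, at 26.6, 28.9 and 26.3 CPM in KO mice against 14.5, 20.7 and 19.0 CPM in WT mice. Mcl1 lost its call without any 1 mouse (0.0751 to 0.262), and Trp53inp1, Dedd2 and Fadd kept theirs only without WT mouse 2 (0.0667 to 0.297 otherwise). Of 30 apoptosis and p53 genes tested, 2 fell and 19 were positive, with a median of 0.07.

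The called immune signalling genes Sla, Tnfaip8l2, Mknk2 and Slfn2 were lower by less than 2-fold, and P2ry10 by more. The Src-like adaptor gene Sla was 1.51-fold lower, Tnfaip8l2, an immune response restraint gene, 1.42-fold lower, the MAP kinase-activated kinase gene Mknk2 1.36-fold lower and the growth-arrest gene Slfn2 1.86-fold lower. All 4 kept their calls only without WT mouse 2 (0.0539 to 0.297 otherwise). P2ry10, a lysophosphatidylserine receptor gene, was 15.3-fold lower at low counts, with 0.368, 0.121 and 0.0462 CPM in KO mice against 5.75, 0.734 and 2.00 CPM in WT mice, and kept its call only without WT mouse 2 (0.0738 to 0.271 otherwise). Its log2 fold change of -3.93 became -5.01 without KO mouse 1 and -2.93 without WT mouse 1, and limma-voom did not call it (adjusted p = 0.378). It was named after its values were seen.

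Tmem140 and Cttnbp2nl, also named after their values were seen, were among the steadiest differences. Tmem140, a transmembrane protein gene, had 22.9, 22.4 and 24.0 CPM in KO mice against 41.1, 40.1 and 42.0 CPM in WT mice, 1.78-fold lower (SE of the log2 fold change 0.11, adjusted p = 0.000569). Cttnbp2nl, which encodes a partner of the STRIPAK phosphatase complex, had 188, 182 and 176 CPM in KO mice against 302, 352 and 399 CPM in WT mice, 1.93-fold lower (adjusted p = 0.00379). For neither gene did a KO mouse come near the lowest WT mouse. Ccdc117 (2.44-fold) and 2810403A07Rik (2.54-fold) were lower too; Ccdc117 kept its call only without WT mouse 2 and 2810403A07Rik lost its call without KO mouse 1 (adjusted p = 0.108).

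Among genes higher in KO macrophages, Plekho2, which encodes a protein with a phosphoinositide-binding domain, was the steadiest. It had 164, 176 and 165 CPM in KO mice against 74.1, 106 and 86.9 CPM in WT mice, and its adjusted p of 0.00212 stayed at or below 0.0187 whichever mouse was left out. Gpcpd1, which cleaves glycerophosphocholine, had 287, 284 and 278 CPM in KO mice against 133, 219 and 151 CPM in WT mice, 1.69-fold higher. The transcriptional repressor gene Bcl6 had 16.8, 14.0 and 13.8 CPM in KO mice against 7.77, 8.72 and 6.57 CPM in WT mice, 1.94-fold higher (adjusted p = 0.0461). Gpcpd1 kept its call only without WT mouse 2 (0.0639 to 0.15 otherwise), and Bcl6 lost its call without any 1 mouse (0.0641 to 0.263).

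The other genes of this kind differed by less than 1.8-fold. Nupl2, a nuclear pore gene, was 1.71-fold higher and kept its call only without KO mouse 3 (0.0663 to 0.174 otherwise). Lrrc58 (1.54-fold), the F-box protein gene Fbxo9 (1.54-fold), Sdccag3 (1.48-fold) and the zinc finger gene Zbtb22 (1.49-fold) were called with all mice. Lrrc58 and Sdccag3 kept their calls only without WT mouse 2, Fbxo9 only without WT mouse 2 or 3, and Zbtb22 lost its call without any 1 mouse; adjusted p without a mouse reached 0.297 among these 4. Zbtb22 overlaps the abundant Tapbp. The galectin-8 gene Lgals8 (1.29-fold) and the palmitoyltransferase gene Zdhhc5 (1.32-fold) gave the smallest called rises named here, and both kept their calls only without WT mouse 2 (up to 0.295 otherwise). Lgals8, Zdhhc5 and, among the lower genes, Prpf39 overlap Heatr1, Med19 and Fkbp3, so their values too depend on how reads were assigned.

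Of 17 tested genes of the Siglec family and its signalling partners, Siglecf alone was called, with a list median of 0.07. The phosphatase genes Ptpn6 (log2 fold change 0.13, SE 0.11) and Ptpn11 (0.06, SE 0.08) were not called, nor were the family members Siglec1 (0.07, SE 0.18), Siglece (-0.02, SE 0.36) and Cd22 (-0.03, SE 0.12). Siglecg, 0.0569 Mb from Siglecf, had 0.989, 4.35 and 1.43 CPM in KO mice against 0.699, 0.353 and 0.475 CPM in WT mice. Its groups did not overlap, and its log2 fold change of 2.15 was imprecise (SE 0.95, 95% interval 0.29 to 4.01, adjusted p = 0.521). Of 25 genes of sialic acid synthesis and transfer, whose products Siglecs bind, 18 were positive, with a median of 0.12 and no call; the list's mean level was 3.91 to 3.96 in KO mice against 3.79 to 3.86 in WT mice.

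In 28 of the 41 lists no gene was called. They include injury and fibrosis macrophage genes (21 tested, median 0.04), chemokines (25, median 0.17), interferon response (32, median -0.16), MHC class II (13, median -0.004), cell cycle (38, median 0.05), lysosome (37, median -0.005) and fatty acid uptake and oxidation (39, median -0.06). The osteopontin gene Spp1 had 391, 277 and 356 CPM in KO mice against 428, 321 and 400 CPM in WT mice, and Fn1, the fibronectin gene, 440, 805 and 576 CPM in KO mice against 671, 1339 and 907 CPM in WT mice. Both overlapped between genotypes. Cholesterol synthesis genes leaned upward, with 22 of 24 positive, a median of 0.13 and a mean level of 5.68 to 5.83 in KO mice against 5.59 to 5.67 in WT mice, but none was called.

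Ribosomal protein genes leaned downward, with 63 of 66 negative and a median of -0.17, and oxidative phosphorylation genes did so in 54 of 57 (median -0.11). In both, the KO mice lay inside the WT range and WT mouse 1, the library that stood apart, was the highest. The mean ribosomal protein level was 8.57, 8.59 and 8.58 in KO mice and 8.99, 8.52 and 8.69 in WT mice. The mean oxidative phosphorylation level was 6.54, 6.55 and 6.55 in KO mice and 6.90, 6.45 and 6.58 in WT mice. No gene of either list was called.

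Outside the chromosome 7 stretch, no gene that was called at rest was called by edgeR in the bleomycin mice. Of the 60 such genes, 18 had an unadjusted p under 0.05 there; DESeq2 called 5 of them (Bcl6, Ctdsp2, Cttnbp2nl, Hs3st3b1 and Plaur) and limma-voom 1 (Bcl6), all with the opposite sign from rest. Only 11 of the 60 (18.3%) kept the sign they had at rest, against 46.7% of all tested genes. Of the 44 that fell at rest, 36 were positive after bleomycin (median 0.13, against a resting median of -0.90). Of the 16 that rose at rest, 3 were positive (median -0.07, against 0.60 at rest). Same-sign counts of the 60 were 25, 17 and 10 at days 7, 14 and 21.

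By name, Rsrp1 had a log2 fold change of 0.45 (SE 0.25) in bleomycin mice, Tsc22d3 of 0.50 (SE 0.20), Luc7l of 0.16 (SE 0.10), Rbm39 of 0.19 (SE 0.11) and Mxd1 of 0.23 (SE 0.08). Plaur came closest to a call in the opposite direction (0.38, SE 0.09, adjusted p = 0.0592), followed by Bcl6 (-0.51, SE 0.12, adjusted p = 0.0757). All 8 splicing genes that fell at rest were positive after bleomycin, between 0.00 for Arglu1 and 0.45 for Rsrp1. The test of the difference between the 2 states called 88 genes (0.697%), among them 45 of the 60. That test contains the same naive mice that chose the 60, so the share is a description.

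**Figure D5:**
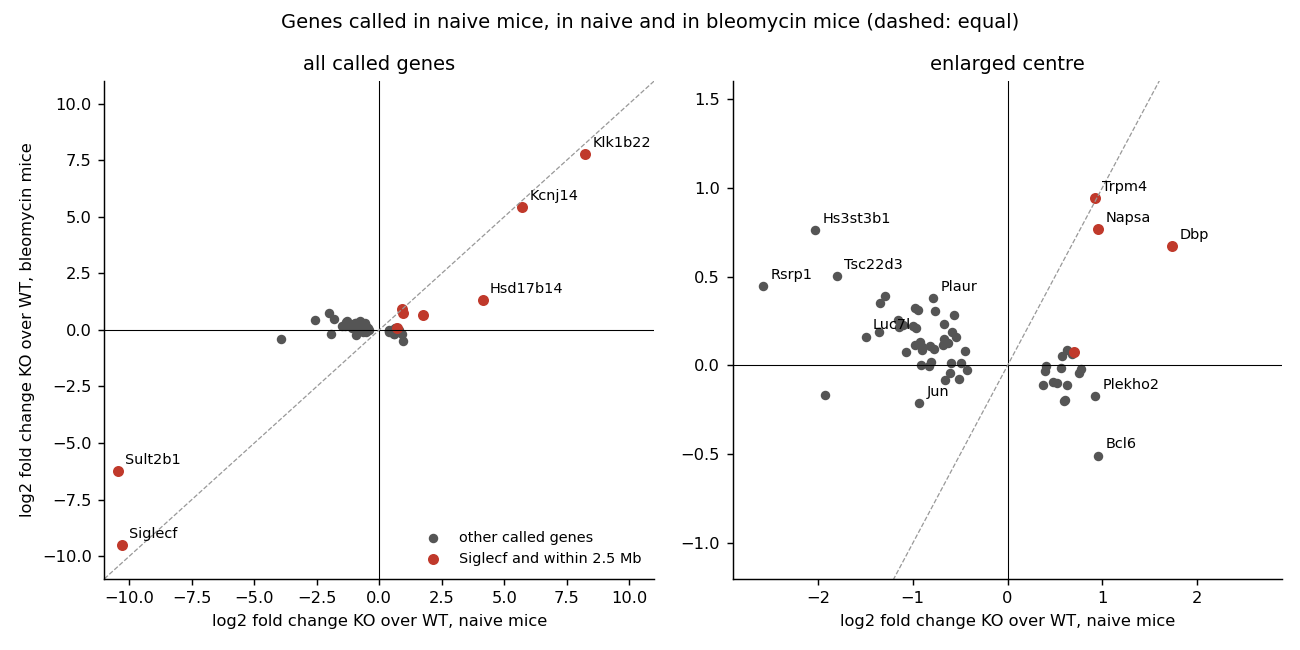
Log2 fold change of KO over WT in naive mice (horizontal) and averaged over the bleomycin days (vertical) for the 69 genes called in naive mice, all of them at left and the centre enlarged at right; the dashed line marks equal values. Siglecf and its neighbours (red) lie near the line apart from Hsd17b14, Sult2b1, Dbp and Sphk2, and the other 60 genes (grey) lie near 0 on the vertical axis, mostly on the other side of it.

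Group means over all 8 groups showed where the naive mice lay for the 60 genes. For 29 of the 44 genes lower in KO mice the KO naive mean lay outside the range of the 6 bleomycin means, and for 34 of the 44 the WT naive mean did. Of these 44, 18 had the KO naive mean below and the WT naive mean above all bleomycin groups. Rsrp1 was one, at 34.8 CPM in KO naive and 208 CPM in WT naive mice, with bleomycin means from 82.7 to 144 CPM. Mxd1 averaged 29.4 CPM in KO naive, 63.3 CPM in WT naive mice and 24.1 to 37.5 CPM in the bleomycin groups, so only WT naive mice stood apart. Plekho2, at 169 CPM in KO naive and 88.9 CPM in WT naive mice, had bleomycin means of 129 to 172 CPM, and only the WT naive mean lay outside them. The naive means chose these genes, so their position is a description without a test.

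Promoters of the called genes were searched for 4 motifs in RefSeq windows (GRCm38.p6, 250 bases before to 50 after a start), on both strands, which for these palindromes are the same. The motifs do not overlap: the cyclic AMP element TGACGTCA, the AP-1 site TGANTCA, the E-box CACGTG and the heat shock unit GAANNTTC. Windows were found for 35 of the 46 lower genes (46 windows), 15 of the 23 higher genes (22 windows) and 9613 of all tested genes (12229 windows). TGANTCA was in 6.52% of windows of lower genes, 0% of those of higher genes and 5.26% of all; CACGTG in 6.52%, 13.6% and 9.89%; GAANNTTC in 6.52%, 4.55% and 6.01%; and TGACGTCA in 0%, 9.09% and 3.07%. Each share of the called genes rests on at most 3 matching windows, and 2 of them on none. Shown are windows of 3 lower genes that hold a match, in capitals, since they stand for the AP-1, urokinase receptor and splicing groups described above. They are Jun at chr4:95052173-95052472 (minus strand), Plaur at chr7:24462233-24462532 (plus strand) and Tra2b at chr16:22265956-22266255 (minus strand).
Jun: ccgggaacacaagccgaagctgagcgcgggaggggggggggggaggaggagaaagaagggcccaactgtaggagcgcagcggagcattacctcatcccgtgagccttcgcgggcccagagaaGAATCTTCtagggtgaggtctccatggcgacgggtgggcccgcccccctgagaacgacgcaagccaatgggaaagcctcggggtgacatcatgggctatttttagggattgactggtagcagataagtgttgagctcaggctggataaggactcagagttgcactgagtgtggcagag
Plaur: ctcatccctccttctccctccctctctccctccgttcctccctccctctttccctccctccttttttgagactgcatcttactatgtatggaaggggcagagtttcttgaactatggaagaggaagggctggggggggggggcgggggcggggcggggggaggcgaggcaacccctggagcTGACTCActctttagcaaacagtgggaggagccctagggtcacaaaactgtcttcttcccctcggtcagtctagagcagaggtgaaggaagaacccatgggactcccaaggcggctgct
Tra2b: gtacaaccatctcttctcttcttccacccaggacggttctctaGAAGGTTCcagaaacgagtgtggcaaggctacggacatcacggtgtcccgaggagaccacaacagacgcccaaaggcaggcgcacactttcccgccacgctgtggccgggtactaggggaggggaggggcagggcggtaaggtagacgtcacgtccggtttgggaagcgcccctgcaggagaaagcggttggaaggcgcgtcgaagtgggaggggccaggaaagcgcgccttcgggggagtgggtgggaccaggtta

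A match is a description of the letters in the window. In Jun and Tra2b the capitals mark GAANNTTC, and in Plaur TGANTCA.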

How the data were processed

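RNA-seq was read from 24 male mice, 3 in each of 8 groups. The values are expected counts per gene as deposited by the authors, estimated upstream of deposit, with 3.11 to 3.85% of values not whole. The genome build was mm10 and the tools named are bcl2fastq, DESeq2 1.42.0 and limma 3.58.1, per the submitters' processing notes; the counter and its use of strand are unstated. Labels name 2 sequencing runs per mouse without saying whether a column sums both. Another 24 columns of the table were not used.

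Expected counts were rounded and fitted with edgeR 4.0.16 in R 4.3.3: TMM scaling, filterByExpr (count minimum 10, total minimum 15), 12634 of 24411 genes tested, 8 groups in 1 quasi-likelihood fit, Benjamini-Hochberg adjustment over all genes, calls at an adjusted p under 0.05. Every adjusted p in the text is from this model unless another tool is named. The contrasts were KO against WT in naive mice, the same averaged over bleomycin days, and their difference. CPM used TMM-scaled totals. On counts simulated for the naive contrast over 12470 genes, edgeR recovered 32.8% of 1.5-fold, 80.6% of 2-fold and 100% of 4-fold changes. Of its 149 calls, 7 were false. Changes were planted only in genes above a minimum expected count, and each gene had the same spread in every group. In the real naive mice the median SD of log2 levels was 0.11 in KO and 0.20 in WT mice. The simulated shares therefore need not hold for the real contrast.

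Named genes are the 15 highest and 15 lowest log2 fold changes among called genes with at least 5 CPM in the higher group, for each list as many as 4 members, taken by smallest p,, and a panel of 44 genes; other called genes are named with their fold, and those with more are said to be named after their values were seen. The members and lists were chosen with earlier results of these data known. Alternatives were RLE scaling, no filter, a replicate block, naive mice alone, thinned counts, Rn45s removed or its share as a covariate, each mouse left out, limma-voom and DESeq2.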

Additional observations from a re-analysis of the deposited data

Results flagged for a closer look

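The genes considered here are the panel and the called genes named for the highest and lowest log2 fold changes. For 24 of them the KO against WT difference at rest differed from that averaged over the bleomycin days. The edgeR test of the difference itself gave each an adjusted p under 0.05. Other genes named above also passed it, among them Cttnbp2nl, Tmem140, Plaur, Tra2b, Luc7l3, Mcl1 and Ogt (adjusted p of 0.00143 to 0.0151). The values below, for the 24, are the difference at rest minus the difference after bleomycin on the log2 scale. They were above 0 for Bcl6 (1.46), Bhlhe41 (1.38), Plekho2 (1.10), Nupl2 (0.80), Gpcpd1 (0.80), Mgea5 (0.80), Fadd (0.79), Fbxo9 (0.74), Sphk2 (0.63), Ddx5 (0.62) and Ndst1 (0.61). They were below 0 for Rsrp1 (-3.02), Hs3st3b1 (-2.79), Tsc22d3 (-2.30), 2810403A07Rik (-1.70), Ccdc117 (-1.68), Luc7l (-1.66), Rbm39 (-1.54), Rbm25 (-1.41), Dnajb1 (-1.36), Mxd1 (-1.33), Srek1 (-1.22), Prpf39 (-1.15) and Srsf11 (-1.09).

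Except for Bhlhe41, these genes were chosen for their resting difference, and the same naive mice enter this test, so a difference in this direction is favoured by the choice. Of the 24, Sphk2 alone lies near Siglecf.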

How the results depend on the processing

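The resting comparison gave 69 calls, 57 without a low-count filter, 72 with RLE scaling, 83 with limma-voom, 54 on thinned counts and 69 with Rn45s removed. It moved further with DESeq2 (163 calls), with the Rn45s share as a covariate (133, of which 67 were higher), with naive mice alone (31, of which 21 were among the 69) and when 1 mouse was left out (11 to 73). DESeq2 also gave 252 calls for the bleomycin average and 286 for the difference between rest and bleomycin, against 64 and 88. The cause of these moves was not tested. At rest limma-voom called 63 of the 69 genes. By limma-voom adjusted p it missed P2ry10 (0.378), Hs3st3b1 (0.171), Dbp (0.133), Crem (0.0734), Trp53inp1 (0.0607) and Bcl6 (0.0539). With mouse number as a replicate block, calls were 38 at rest, 53 after bleomycin and 58 for the difference. The deviations of same-numbered KO and WT naive mice had correlations of -0.09, 0.00 and -0.05. These values show no strong deviation shared by number. With 3 mice a group they cannot decide whether the numbers pair the mice. Across single genes, 1280 values kept direction and call, 396 kept direction and lost the call, 3 gained it (all Bhlhe41) and none changed direction. Of 287 list counts under alternatives, 55 moved by over 1.5 times. Of the 69 genes, Siglecf, Plekho2, Luc7l, Rbm39, Mxd1, Sult2b1, Cttnbp2nl and Tmem140 were called under every alternative tried; Srsf11 (adjusted p = 0.054) and Klk1b22 (0.074) lost their call with naive mice alone. With 3 mice a group, changes of 1.5-fold were mostly below what the simulated data allowed to be called.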
